A study of Danio rerio with 9 samples.

Results

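Livers of wild-type zebrafish larvae treated with 10 mM metronidazole were compared with livers of wild-type larvae treated with vehicle, over every gene that passed a filter on low counts. The libraries were taken by the treatment in their labels, which gave 3 libraries at 10 mM and 3 of vehicle, 6 of the 9 libraries of the series. The remaining 3, at 1 mM metronidazole, enter this comparison through the shared estimate of the spread, the scaling factors and the filter on low counts. Both groups were microdissected livers collected after a 24 h treatment, and poly A RNA was sequenced. The labels give the wild-type genotype for both groups and name no nitroreductase transgene. The sources used here do not give the age of the larvae, the nature of the vehicle or the number of livers behind a library, nor whether replicates came from separate clutches. Each p-value therefore measures the scatter among the libraries, which may be partly technical.

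Metronidazole is a nitroimidazole prodrug. Bacterial nitroreductase reduces its nitro group and turns it into a toxin, and in zebrafish research the drug is added to the water to kill cells that carry a nitroreductase transgene. The liver is the main site of drug metabolism, in which phase I enzymes such as cytochromes P450 modify a compound and phase II enzymes couple it to glucuronate, sulfate or glutathione. Liver cells also hold several stress programmes that act through gene expression. The transcription factor Nrf2, held back by Keap1, turns on antioxidant genes, ATF4 turns on amino acid supply genes when translation is restrained, and the unfolded protein response turns on chaperones of the endoplasmic reticulum (ER). In fasting, glucagon, glucocorticoids and FOXO factors turn on gluconeogenesis in the liver, and insulin opposes them.

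Of 32520 genes in the deposited table, 16766 were tested, 16035 of them with a symbol. At an adjusted p under 0.05, 1633 genes were higher at 10 mM (9.74% of those tested) and 1245 were lower (7.43%), together 17.2%. By edgeR's quasi-likelihood test, 742 of the higher genes and 477 of the lower genes changed at least 2-fold, that is by 1 or more on the log2 scale, and 101 and 13 changed by 3 or more. The median log2 change of all tested genes was -0.03. Of genes averaging 10 to 100 CPM (read counts scaled to a common library size, after TMM adjustment), 29% passed the threshold, against 3.46% of those under 1 CPM. None of the 20 most abundant genes passed in either direction. These counts were 1084 higher and 770 lower without vehicle replicate 3, and 2282 and 1784 without 1 mM replicate 3. Leaving out any vehicle library, or replicate 1 or 3 at 10 mM, left 770 to 809 lower genes.

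**Figure D1:**
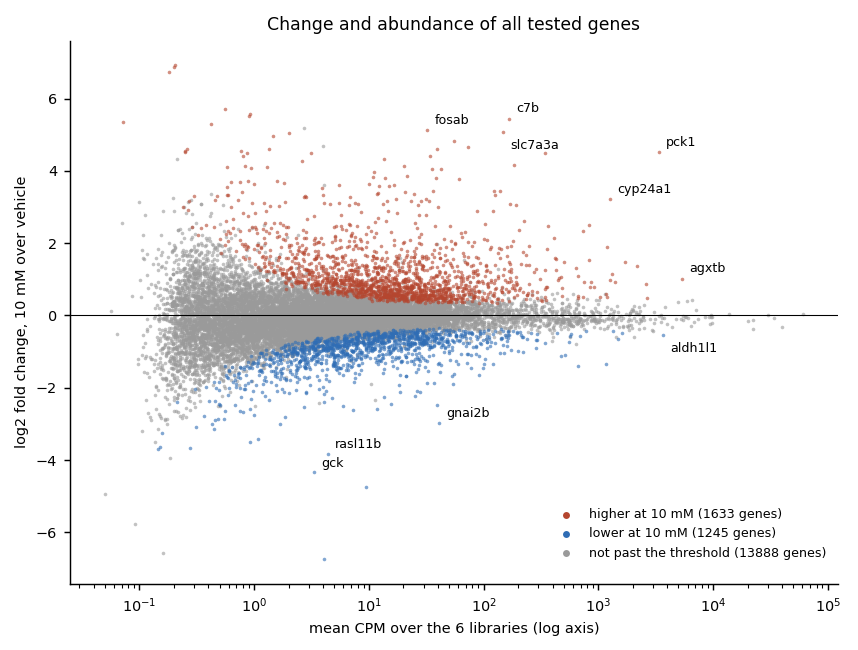
Each point is 1 of 16766 tested genes, placed by its mean CPM over the 3 libraries at 10 mM and the 3 of vehicle (log axis) and its log2 fold change at 10 mM over vehicle. The 1633 higher genes are red and the 1245 lower genes blue, and pck1 and cyp24a1 are abundant genes with large rises.

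Total counts were 29993109 to 41300673 in the libraries at 10 mM and 37192765 to 39340652 in those of vehicle. The column names place 10 mM replicate 3 on lane 8 and all other libraries on lane 7, so values without that library are values within 1 lane. Within lane 7, 1183 genes were higher and 805 lower. The first principal component, 34.9% of the variance, placed the libraries at 10 mM between 47.5 and 67.7 and all others between -34.6 and -25.7. On the second component, 17.4% of the variance, 1 mM replicate 3 stood apart at -76.8 and all others lay between -5.99 and 26.6. Its TMM scaling factor was 0.877, against 0.963 to 1.11 for the others. List counts without it are given where they moved by over 1.5 times, except for several counts of 0 to 2 members. Of these, lower serine, glycine and folate enzymes went from 2 to 5 without it, and higher extracellular matrix genes from 2 to 5. Higher bile acid genes went from 2 to 4 and higher hepatocyte markers from 0 to 3. Liver RNA was recognised by 19 hepatocyte marker genes, whose summed level was 201530 to 232570 CPM at 10 mM and 217450 to 230610 CPM in vehicle. The liver fatty acid binding protein gene fabp10a (ENSDARG00000038439) had 8738, 9977 and 7362 CPM at 10 mM, against 10478, 8989.8 and 11124 CPM in vehicle, and the groups overlapped. This gene was named after its values were seen. Markers of the exocrine pancreas, an organ next to the liver, summed to 14458 to 30587 CPM at 10 mM and 12451 to 26331 CPM in vehicle, and 0 of 30 passed the test by edgeR.

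Genes to name were chosen among called genes that had a symbol, averaged 1 CPM or more and kept the groups apart, so for them the lack of overlap is no result. The groups did not overlap in 40.6% of all tested genes and in 2866 of the 2878 called genes. So nothing is read from a lack of overlap in any called gene below. A tested member of the list of apolipoproteins and lipoprotein handling had a larger log2 change, 5.57, but lay outside the criteria for naming. The largest rise within those criteria was that of c7b (ENSDARG00000057121), which encodes complement component 7, a part of the membrane attack complex. It had 415, 215 and 347 CPM at 10 mM, against 10.6, 6.45 and 5.45 CPM in vehicle (replicates 1, 2 and 3 in this order, here and throughout). Of the treated libraries, 10 mM replicate 2 was the lowest for c7b (log2 5.44, SE 0.32, adjusted p = 2.31e-06). The gene slc7a3a (ENSDARG00000020645), a transporter of cationic amino acids, had 338, 152 and 364 CPM at 10 mM, against 9.99, 6.82 and 8.61 CPM in vehicle (log2 5.07, SE 0.45, adjusted p = 2.12e-05). The anion transporter gene slc26a5 (ENSDARG00000022424) had 138, 46.5 and 136 CPM at 10 mM, against 2.52, 4.68 and 4.13 CPM in vehicle (log2 4.82, SE 0.46, adjusted p = 3.06e-05). In both transporter genes 10 mM replicate 2 was the lowest of the treated libraries. The gene dio3b (ENSDARG00000095767) encodes a deiodinase that inactivates thyroid hormone, and it had 149.7, 115 and 159 CPM at 10 mM, against 5.81, 5.80 and 5.23 CPM in vehicle (log2 4.65, SE 0.58, adjusted p = 0.000174). Its libraries lay close together within each group. The mitochondrial ATP-Mg/phosphate carrier gene slc25a25a (ENSDARG00000010572) had 490.4, 476 and 992 CPM at 10 mM, against 9.69, 27 and 50.6 CPM in vehicle (log2 4.49, SE 0.70, adjusted p = 0.000782), with 10 mM replicate 3 the highest. Without vehicle replicate 3, the log2 change of slc25a25a was 5.15.

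The other genes of this group were low in vehicle or varied between the treated libraries. The immediate early gene fosab (ENSDARG00000031683) had 6.22, 76.1 and 106 CPM at 10 mM, against 0.849, 1.80 and 2.66 CPM in vehicle (log2 5.14, SE 0.84, adjusted p = 0.00112), so that 10 mM replicate 1 stood apart from the other treated libraries. The antiproliferative gene btg2 (ENSDARG00000020298) had 12.6, 72.7 and 142 CPM at 10 mM, against 2.79, 2.34 and 4.16 CPM in vehicle (log2 4.61, SE 0.68, adjusted p = 0.000562), in the same pattern. Without 10 mM replicate 3 the log2 change was 4.53 for fosab and 3.78 for btg2. The centrosomal kinase gene nek2 (ENSDARG00000005619) had 4.07, 1.08 and 2.69 CPM at 10 mM, against 0.164, 0.104 and 0.0498 CPM in vehicle (log2 4.60, SE 0.63, adjusted p = 0.000316). The fibroblast growth factor homologous factor gene fgf13b (ENSDARG00000056633) had 8.74, 3.36 and 6.07 CPM at 10 mM, against 0.602, 0.208 and 0 CPM in vehicle (log2 4.50, SE 0.92, adjusted p = 0.00457). Its log2 change was 5.84 without vehicle replicate 1 and 3.90 without vehicle replicate 3. The genes si:ch1073-190k2.1 (log2 5.06, SE 0.84) and si:ch211-113g11.6 (log2 4.98, SE 1.04) were near 0 in vehicle and highest in 10 mM replicate 1, at 8.66 and 6.39 CPM. Without that library their log2 changes were 3.67 and 3.52, and si:ch211-113g11.6 missed the threshold without 10 mM replicate 1 (adjusted p = 0.0721). Without vehicle replicate 2 the log2 change of si:ch211-113g11.6 was 6.59.

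**Figure D2:**
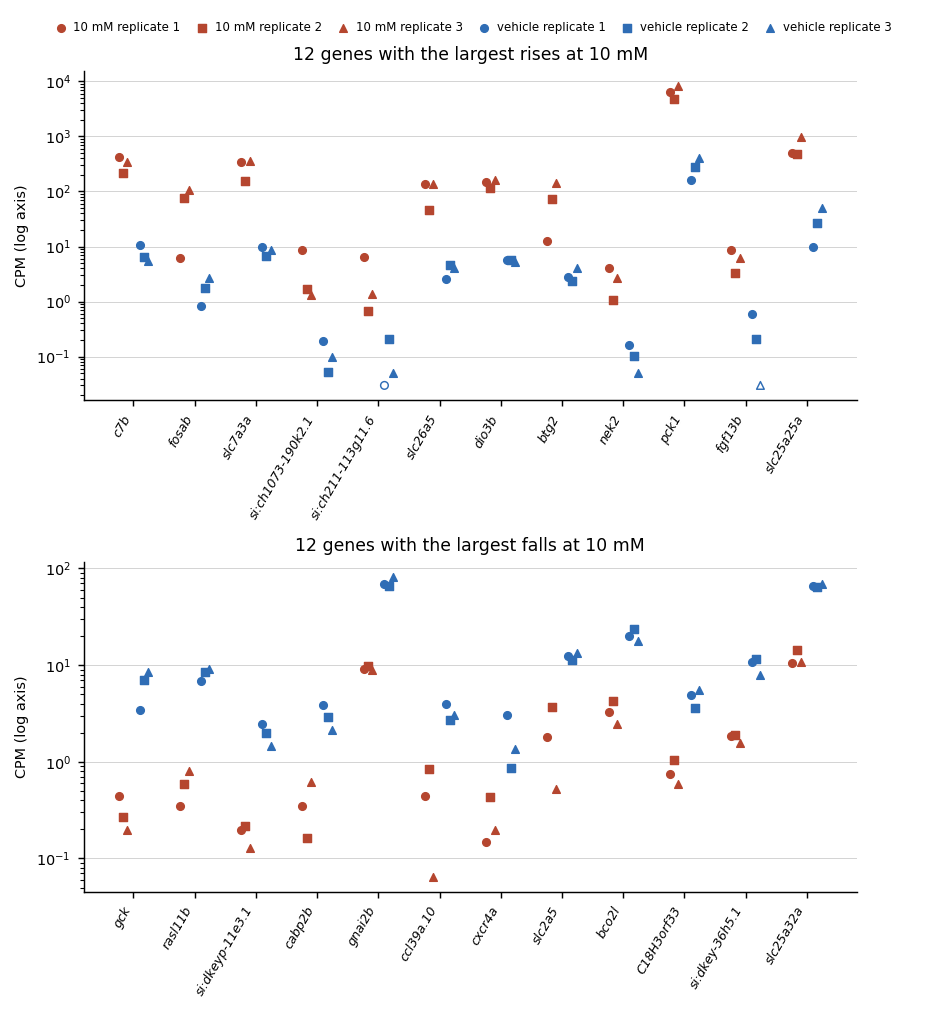
Points give CPM (log axis) in each of 3 libraries at 10 mM (red, left) and 3 of vehicle (blue, right) for the 12 genes with the largest rises (top) and the 12 with the largest falls (bottom) among called genes that had a symbol, averaged 1 CPM or more and did not overlap, the marker shape giving the replicate. Open symbols at the bottom of the top panel are libraries with 0 CPM. The treated libraries spread widest in fosab, ccl39a.10 and btg2.

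Among the genes chosen in this way, the largest fall was that of glucokinase, gck (ENSDARG00000068006), which phosphorylates glucose for use and storage in the liver. It had 0.444, 0.269 and 0.195 CPM at 10 mM, against 3.40, 7.08 and 8.52 CPM in vehicle, near the low end of detection at 10 mM (log2 -4.34, SE 0.62, adjusted p = 0.000438). The small GTPase gene rasl11b (ENSDARG00000015611) had 0.345, 0.592 and 0.811 CPM at 10 mM, against 6.93, 8.48 and 9.06 CPM in vehicle (log2 -3.83, SE 0.40, adjusted p = 5.03e-05). The gene gnai2b (ENSDARG00000017294), an inhibitory G protein alpha subunit, had 9.08, 9.69 and 8.83 CPM at 10 mM, against 68.4, 65.8 and 81.4 CPM in vehicle (log2 -2.96, SE 0.13, adjusted p = 2.09e-07). The 3 libraries of each group lay close together for gnai2b, and its adjusted p was the smallest of all 1245 lower genes. The mitochondrial folate carrier gene slc25a32a (ENSDARG00000089791) had 10.5, 14.4 and 10.7 CPM at 10 mM, against 66.2, 63.7 and 69.0 CPM in vehicle (log2 -2.48, SE 0.15, adjusted p = 2.55e-06). The carotenoid oxygenase gene bco2l (ENSDARG00000027620) had 3.26, 4.28 and 2.47 CPM at 10 mM, against 19.9, 23.4 and 17.6 CPM in vehicle (log2 -2.60, SE 0.19, adjusted p = 8.28e-06). The fructose transporter gene slc2a5 (ENSDARG00000077875) had 1.83, 3.66 and 0.519 CPM at 10 mM, against 12.5, 11.4 and 13.4 CPM in vehicle (log2 -2.61, SE 0.43, adjusted p = 0.00124). Here 10 mM replicate 3 lay lowest, and without 10 mM replicate 2 the log2 change was -3.34. Of signalling genes at lower levels, the chemokine gene ccl39a.10 (ENSDARG00000096060) had 0.444, 0.834 and 0.0649 CPM at 10 mM, against 3.97, 2.71 and 3.06 CPM in vehicle (log2 -2.81, SE 0.49, adjusted p = 0.00165), and the log2 change was -3.55 without 10 mM replicate 2. The chemokine receptor gene cxcr4a (ENSDARG00000057633) had 0.148, 0.431 and 0.195 CPM at 10 mM, against 3.07, 0.859 and 1.34 CPM in vehicle (log2 -2.75, SE 0.54, adjusted p = 0.00351), and the log2 change was -2.08 without vehicle replicate 1. The calcium-binding protein gene cabp2b (log2 -3.0, SE 0.45) and the genes si:dkeyp-11e3.1 (log2 -3.41, SE 0.48), C18H3orf33 (log2 -2.55, SE 0.36) and si:dkey-36h5.1 (log2 -2.51, SE 0.20) completed the 12 largest falls of such genes. Larger falls outside these criteria, seen among all called genes averaging at least 1 CPM, were those of krt5, whose groups overlapped, and of a gene without a symbol, ENSDARG00000115716, both found after the values were seen. This gene had 0.148, 0.0538 and 0 CPM at 10 mM, against 5.37, 0.338 and 18.7 CPM in vehicle (log2 -6.74, SE 2.12, adjusted p = 0.0457), with a wide spread within vehicle.

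The largest rises by absolute level were in metabolic enzymes, a transporter and secreted proteins. The gene pck1 (ENSDARG00000013522), whose product commits carbon to gluconeogenesis, had 6414, 4817 and 8279 CPM at 10 mM, against 165, 280.4 and 398 CPM in vehicle (log2 4.53, SE 0.53, adjusted p = 0.000107). Of the libraries, 10 mM replicate 3 was the highest. The vitamin D 24-hydroxylase gene cyp24a1 (ENSDARG00000103277), which inactivates vitamin D, had 2294, 1971 and 2660.0 CPM at 10 mM, against 300.1, 179.6 and 258 CPM in vehicle (log2 3.23, SE 0.26, adjusted p = 1.27e-05). The alanine-glyoxylate aminotransferase gene agxtb (ENSDARG00000018478) had 7664, 6815 and 7284 CPM at 10 mM, against 3789, 3901 and 3061 CPM in vehicle (log2 1.02, SE 0.16, adjusted p = 0.000911). The insulin-like growth factor binding protein genes igfbp1a (ENSDARG00000099351) and igfbp1b (ENSDARG00000038666), which are induced by fasting in mammals and fish, rose together. For igfbp1a the values were 1553, 1648 and 2412 CPM at 10 mM, against 434, 499.7 and 566 CPM in vehicle (log2 1.90, SE 0.23, adjusted p = 0.00016). For igfbp1b they were 1576, 1036 and 1603 CPM at 10 mM, against 259, 218 and 264 CPM in vehicle (log2 2.51, SE 0.26, adjusted p = 5.33e-05). The neutral amino acid transporter gene slc38a4 (log2 1.36, SE 0.18), the purine nucleoside phosphorylase gene pnp5a (log2 1.47, SE 0.19) and the tyrosine aminotransferase gene tat (log2 0.86, SE 0.16) averaged 3156 ± 302, 2529 ± 294 and 3335 ± 459.9 CPM at 10 mM and 1233 ± 182, 914 ± 18.5 and 1839 ± 67.2 CPM in vehicle (SD, n = 3 each).

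The largest falls by absolute level were smaller in fold. The folate enzyme gene aldh1l1 (ENSDARG00000077004) had 3178, 3283 and 2537 CPM at 10 mM, against 4590.1, 4356 and 4254 CPM in vehicle (log2 -0.55, SE 0.15, adjusted p = 0.0233), and aldh1l1 missed the threshold without 10 mM replicate 1 or 3 or any vehicle library (adjusted p 0.0606 to 0.0953). The cytochrome P450 gene cyp2ad2 (ENSDARG00000021172) had 646, 805 and 546 CPM at 10 mM, against 1634, 1771 and 1659 CPM in vehicle (log2 -1.34, SE 0.16, adjusted p = 0.000132). The vitamin D binding protein gene gc (ENSDARG00000089310) had 1413, 1340.0 and 1264 CPM at 10 mM, against 1825, 1942 and 1817 CPM in vehicle (log2 -0.48, SE 0.13, adjusted p = 0.0276), and gc missed the threshold without any 10 mM library or any vehicle library (adjusted p 0.0689 to 0.11). The histidine catabolism gene ftcd (log2 -0.44, SE 0.14) likewise lay close to the threshold, and ftcd missed the threshold without any 10 mM library, 1 mM replicate 2 or any vehicle library (adjusted p 0.0672 to 0.165). The xanthine dehydrogenase gene XDH (ENSDARG00000055240), which makes uric acid, had 315, 326 and 346 CPM at 10 mM, against 678, 681 and 731 CPM in vehicle (log2 -1.08, SE 0.15, adjusted p = 0.000417). The apolipoprotein B gene apobb.2 (ENSDARG00000075016) had 317, 306 and 275 CPM at 10 mM, against 702, 598 and 664 CPM in vehicle (log2 -1.13, SE 0.19, adjusted p = 0.00146). In XDH and apobb.2 the libraries of a group lay close together. The uncharacterised gene si:ch211-113d11.5 (log2 -1.39, SE 0.18) and 1 further gene without a named function completed the group.

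Genes of vitamin D and thyroid hormone turnover changed beyond cyp24a1, gc and dio3b. The gene cyp27b1 (ENSDARG00000045015), chosen after its values were seen like all genes of this paragraph, makes active vitamin D. It had 15, 17.6 and 36.6 CPM at 10 mM, against 65.4, 98.0 and 95.2 CPM in vehicle (log2 -1.90, SE 0.35, adjusted p = 0.00235). The vitamin D 25-hydroxylase gene CYP2R1 had 12.1, 11.8 and 18.3 CPM at 10 mM, against 24.1, 44.4 and 48.8 CPM in vehicle (log2 -1.48, SE 0.25, adjusted p = 0.00131). The genes of these activating hydroxylases were thus called lower, and that of the inactivating one, cyp24a1, was called higher. The deiodinase gene dio2 (ENSDARG00000094857), which activates thyroid hormone, had 3.04, 2.1 and 3.18 CPM at 10 mM, against 5.97, 7.86 and 7.52 CPM in vehicle (log2 -1.36, SE 0.22, adjusted p = 0.00112), opposite in direction to dio3b.

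Lists of 44 pathways and 14 cell types were counted against the whole table, where 9.74% of genes were higher and 7.43% lower. These shares depend on level. Of 4671 genes at 10 to 100 CPM 846 were higher and 508 lower, and of 3849 under 1 CPM 64 and 69. The lists were not matched for level, so a list of well expressed genes can exceed the whole-table share for that reason alone. The share of higher members was largest for glucocorticoid receptor targets (54.5%), immediate early and MAPK feedback genes (52.9%), ER chaperones (52.1%), Nrf2 genes (50%) and ribosome biogenesis (48.8%). The share of lower members was largest for bile acid genes (30.8%), phase I enzymes (27.4%) and the circadian clock (23.3%). Counts of 1 or 2 members often moved by over 1.5 times when a single library was left out, and nothing is read from them.

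**Figure D3:**
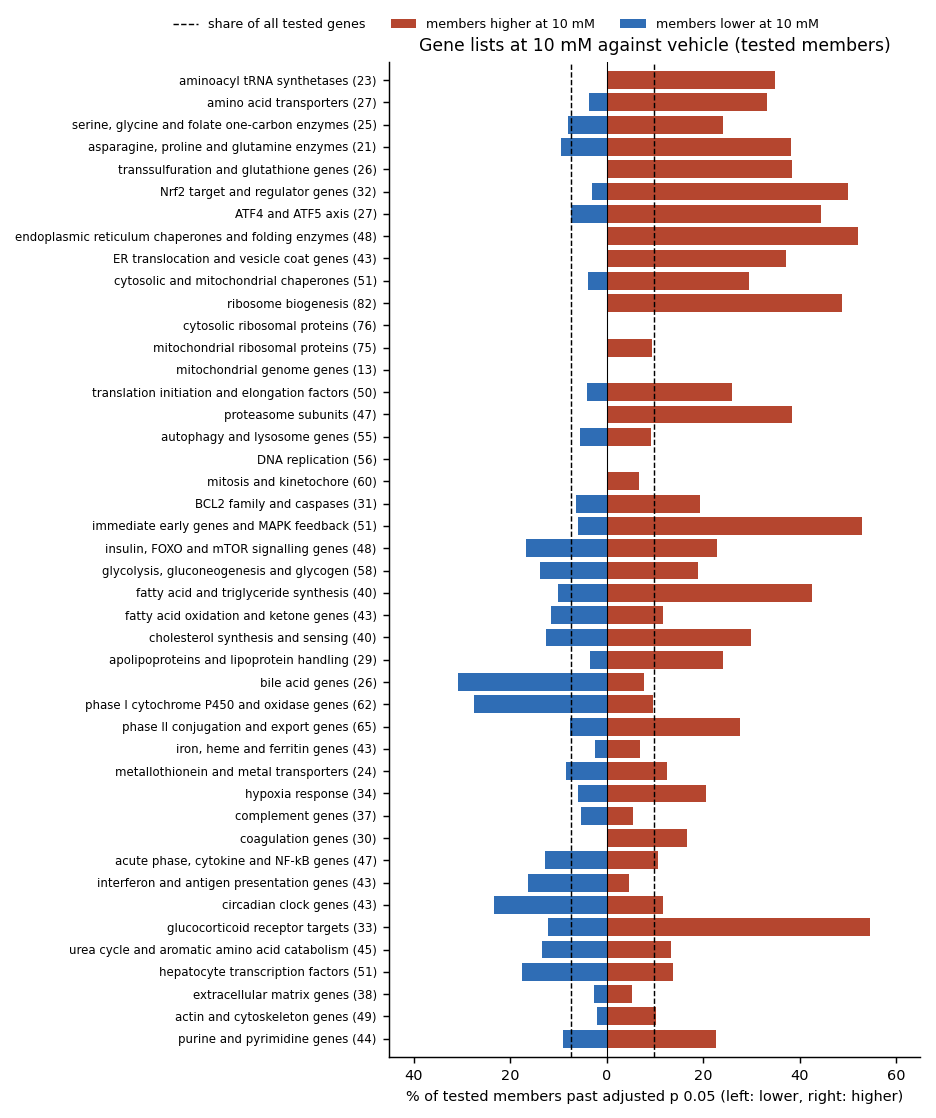
Bars give, for each of 44 pathway lists with the number of tested members in brackets, the percent of tested members past an adjusted p of 0.05 that were higher (red, right) or lower (blue, left) at 10 mM. Dashed lines mark the same shares over all tested genes, 9.74% higher and 7.43% lower.

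Many antioxidant genes rose at 10 mM. Nrf2 binds antioxidant response elements with small Maf partners, and its classic targets make and reduce glutathione and supply NADPH. Of 32 tested Nrf2 targets and regulators, 16 were higher and 1 lower, with a median log2 change of 0.54. The gene gclm (ENSDARG00000018953), the modifier subunit of the enzyme that makes the glutathione precursor, had 52.7, 43.4 and 57.3 CPM at 10 mM, against 5.45, 5.02 and 6.42 CPM in vehicle (log2 3.18, SE 0.17, adjusted p = 8.12e-07). The glutathione reductase gene gsr (ENSDARG00000019236) had 315, 236 and 277 CPM at 10 mM, against 71.0, 71.7 and 75.2 CPM in vehicle (log2 1.93, SE 0.14, adjusted p = 7.94e-06). In both, the groups did not overlap, as in nearly all called genes. The pentose phosphate gene pgd (ENSDARG00000015343), a source of cytosolic NADPH, rose as well, with 330.4, 241 and 337 CPM at 10 mM, against 33.6, 36.7 and 37.6 CPM in vehicle (log2 3.07, SE 0.20, adjusted p = 3.42e-06). In pgd, 10 mM replicate 2 was the lowest treated library. The small Maf gene maff had 77.1, 62.9 and 80.8 CPM at 10 mM, against 22.1, 18.4 and 19.3 CPM in vehicle (log2 1.88, SE 0.14, adjusted p = 8.28e-06).

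Among antioxidant genes chosen after their values were seen, the peroxiredoxin gene prdx1 had 170.1, 119 and 175 CPM at 10 mM, against 18.3, 22.9 and 21.7 CPM in vehicle (log2 2.88, SE 0.29, adjusted p = 4.08e-05). The glutathione synthetase gene gss had 10.6, 5.46 and 12.9 CPM at 10 mM, against 1.75, 1.95 and 1.44 CPM in vehicle (log2 2.49, SE 0.29, adjusted p = 0.000107). The catalytic subunit gene gclc rose less than gclm and was higher in vehicle, with 40.6, 31.4 and 40.2 CPM at 10 mM, against 22.3, 22.8 and 23.5 CPM in vehicle (log2 0.71, SE 0.13, adjusted p = 0.00276). Of the Nrf2 genes themselves, nfe2l2b had 5.70, 4.63 and 4.54 CPM at 10 mM, against 0.383, 1.04 and 0.896 CPM in vehicle (log2 2.67, SE 0.37, adjusted p = 0.000398), while the abundant nfe2l2a (235, 228 and 240.1 CPM at 10 mM, against 188, 209 and 184 CPM in vehicle) did not pass (log2 0.27, SE 0.13, adjusted p = 0.182). The quinone reductase gene nqo1 rose (log2 0.51, SE 0.14, adjusted p = 0.0231), but nqo1 missed the threshold without 10 mM replicate 1 or 2 or any vehicle library (adjusted p 0.0542 to 0.102). The lower member of the list was the heme oxygenase gene hmox1a (ENSDARG00000027529), also a classic Nrf2 target, with 19.3, 19.1 and 11 CPM at 10 mM, against 47.2, 40.6 and 30.7 CPM in vehicle (log2 -1.26, SE 0.28, adjusted p = 0.00692). Of 26 genes of transsulfuration and glutathione, which share gclm, gsr and pgd, among others, with the Nrf2 list, 10 were higher and 0 lower (median 0.45). The oxidoreductase genes AIFM2 (ENSDARG00000077549), a ferroptosis suppressor in mammals, and aifm4 rose with them. For AIFM2 the values were 93.2, 76.4 and 100.4 CPM at 10 mM, against 20.5, 23.5 and 24.8 CPM in vehicle (log2 1.97, SE 0.14, adjusted p = 7.94e-06). For aifm4, chosen after its values were seen, they were 21.4, 15.3 and 26.4 CPM at 10 mM, against 1.31, 1.41 and 1.29 CPM in vehicle (log2 3.97, SE 0.28, adjusted p = 7.47e-06). The tetrahydrobiopterin synthesis gene gch1, chosen in the same way, had 604, 555 and 711 CPM at 10 mM, against 127, 106 and 104 CPM in vehicle (log2 2.47, SE 0.18, adjusted p = 7.94e-06). In aifm4 and gch1, as in AIFM2, 10 mM replicate 2 was the lowest treated library.

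Many genes of amino acid supply and of the ATF4 response rose. ATF4 is translated when the eIF2 kinases are active, and it turns on amino acid transporters, tRNA synthetases and its own brakes. Of 27 genes of the ATF4 and ATF5 axis, 12 were higher and 2 lower (median 0.43). The mTOR inhibitor gene ddit4 (ENSDARG00000037618) had 36.7, 56.2 and 104 CPM at 10 mM, against 1.42, 3.02 and 4.81 CPM in vehicle (log2 4.40, SE 0.49, adjusted p = 8.29e-05). The gene atf3 (ENSDARG00000007823), a stress transcription factor, had 4.2, 5.65 and 12.2 CPM at 10 mM, against 0.822, 0.624 and 1.1 CPM in vehicle (log2 3.11, SE 0.45, adjusted p = 0.000473). The phosphatase subunit gene ppp1r15b, which lets translation resume, had 12.5, 7.56 and 9.44 CPM at 10 mM, against 1.64, 3.02 and 0.996 CPM in vehicle (log2 2.38, SE 0.35, adjusted p = 0.000544). For ddit4 and atf3, 10 mM replicate 3 was the highest library. The pseudokinase gene trib3, chosen after its values were seen, had 38.8, 45.6 and 110.0 CPM at 10 mM, against 10.6, 14.7 and 28.2 CPM in vehicle (log2 1.86, SE 0.43, adjusted p = 0.00956). For trib3, 10 mM replicate 3 decided the size, since the log2 change without it was 1.24, and trib3 missed the threshold without vehicle replicate 2 (adjusted p = 0.0534). The gene atf4a itself, chosen after its values were seen, rose less (log2 0.56, SE 0.17, adjusted p = 0.0373), and atf4a missed the threshold without 10 mM replicate 1 or 2, 1 mM replicate 2 or any vehicle library (adjusted p 0.0507 to 0.137).

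Of 23 tRNA synthetases, 8 were higher and 0 lower (median 0.32), led by the methionine enzyme. Its gene mars1 (ENSDARG00000034396) had 34.6, 29.4 and 32.6 CPM at 10 mM, against 12.8, 11.6 and 10.7 CPM in vehicle (log2 1.46, SE 0.15, adjusted p = 4.08e-05). The glutamine enzyme qars1 (log2 1.37, SE 0.15), the threonine enzyme tars1 (log2 1.17, SE 0.13) and the tyrosine enzyme yars1 (log2 1.05, SE 0.19) were next. Of 27 amino acid transporters, 9 were higher and 1 lower (median 0.36). Beside slc7a3a and slc38a4, the glutamine transporter gene slc38a3a had 445, 316 and 421 CPM at 10 mM, against 111, 124 and 74.7 CPM in vehicle (log2 1.93, SE 0.23, adjusted p = 0.00012). The neutral amino acid exchanger gene slc1a5 had 50.1, 38.5 and 48.6 CPM at 10 mM, against 14.2, 11.2 and 9.41 CPM in vehicle (log2 1.98, SE 0.23, adjusted p = 9.63e-05). The summed level of the 31 matched transporter genes was 5024, 4020 and 4890.0 CPM at 10 mM, against 1976, 2013 and 1589 CPM in vehicle. Most of this sum was slc38a4, with a mean of 3156 of 4644 CPM at 10 mM and 1233 of 1859 CPM in vehicle. So the sum does not describe the whole list, of which 17 of 27 tested members were not called. Of 21 enzymes of asparagine, proline and glutamine, 8 were higher and 2 lower. The glutaminase gene gls2b had 42.3, 32.7 and 55.6 CPM at 10 mM, against 8.43, 11 and 12.7 CPM in vehicle (log2 2.02, SE 0.22, adjusted p = 7.55e-05). The proline dehydrogenase gene prodha had 76.8, 54.8 and 82.6 CPM at 10 mM, against 24, 28.7 and 21.0 CPM in vehicle (log2 1.54, SE 0.19, adjusted p = 0.00014). The asparagine synthetase gene asns had 15.1, 17.4 and 17.5 CPM at 10 mM, against 7.23, 9.0 and 5.78 CPM in vehicle (log2 1.18, SE 0.17, adjusted p = 0.000562). So genes that break amino acids down and genes that make them were among the higher ones. Of 25 enzymes of serine, glycine and folate, 6 were higher and 2 lower, and the mitochondrial folate enzyme gene mthfd2 (log2 2.38, SE 0.49) stayed under 3 CPM in every library. The folate polyglutamation gene fpgs averaged 151 ± 6.30 CPM at 10 mM and 63.6 ± 3.12 CPM in vehicle (SD, n = 3 each) (log2 1.25, SE 0.21, adjusted p = 0.00118).

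Many protein folding genes of the ER rose. The ER chaperones are induced by the sensors ATF6, IRE1 and PERK when unfolded protein accumulates. Of 48 tested ER chaperones and folding enzymes, 25 were higher and 0 lower (median 0.51). The chaperone gene hyou1 (ENSDARG00000013670) had 26.1, 39.3 and 50.0 CPM at 10 mM, against 13, 9.68 and 10.7 CPM in vehicle (log2 1.79, SE 0.21, adjusted p = 0.000101). The gene hspa5 (ENSDARG00000103846), the main ER chaperone BiP, had 89.6, 136 and 149 CPM at 10 mM, against 36.6, 25.7 and 36.3 CPM in vehicle (log2 1.93, SE 0.26, adjusted p = 0.000292). The disulfide isomerase gene pdia6 had 38.8, 42.6 and 54.0 CPM at 10 mM, against 21.3, 16.1 and 19.3 CPM in vehicle (log2 1.26, SE 0.16, adjusted p = 0.000179). In all of these 10 mM replicate 1 was the lowest treated library. The sensor gene atf6 had 62.5, 63.8 and 72.3 CPM at 10 mM, against 33.0, 31.3 and 35.4 CPM in vehicle (log2 0.99, SE 0.11, adjusted p = 0.000106). The genes manf (log2 1.95, SE 0.29) and sdf2l1 (log2 2.14, SE 0.45), chosen after their values were seen, are ER stress targets in mammals and were higher too. The chaperone gene hsp90b1, also chosen so, had 105, 143 and 174 CPM at 10 mM, against 67.4, 49.3 and 81.4 CPM in vehicle (log2 1.09, SE 0.24, adjusted p = 0.00718). Of 43 genes of ER translocation and vesicle coats, 16 were higher and 0 lower (median 0.33), of which the signal recognition particle receptor gene SRPRA had 116, 124 and 121 CPM at 10 mM, against 67.2, 64.9 and 59.06 CPM in vehicle (log2 0.92, SE 0.12, adjusted p = 0.000203). That count was 6 to 10 without 10 mM replicate 1 or 3 or any vehicle library.

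Of 51 cytosolic and mitochondrial chaperones and proteases, 15 were higher and 2 lower (median 0.38). Higher members numbered 23 without 1 mM replicate 3 and 23 in a fit of only the 6 libraries. The heat shock protein gene hspa4a (ENSDARG00000004754) had 29.3, 30.5 and 33.2 CPM at 10 mM, against 3.83, 2.76 and 3.34 CPM in vehicle (log2 3.23, SE 0.24, adjusted p = 8.28e-06). The higher members with the smallest p included genes of mitochondrial chaperones and proteases. The mitochondrial chaperonin gene hspd1 had 105, 96.0 and 102 CPM at 10 mM, against 35.2, 37.3 and 36.5 CPM in vehicle (log2 1.48, SE 0.14, adjusted p = 2.46e-05). The mitochondrial protease gene LONP1 had 35.7, 35.1 and 40.9 CPM at 10 mM, against 11.8, 13.7 and 10.6 CPM in vehicle (log2 1.63, SE 0.16, adjusted p = 4.09e-05). The gene clpxa, the unfoldase of another mitochondrial protease, had 233, 214 and 239 CPM at 10 mM, against 116, 118 and 100.4 CPM in vehicle (log2 1.03, SE 0.12, adjusted p = 0.000123). In all of these the libraries of a group lay close together. The classic heat shock gene hsp70.1, named after its values were seen, did not pass (log2 2.22, SE 0.77, adjusted p = 0.0662) and stayed under 2 CPM in every library, but it passed by the DESeq2 test (adjusted p = 0.0228) and in a fit of only the 6 libraries (adjusted p = 0.0273).

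Many genes that build ribosomes rose, and no gene of a cytosolic ribosomal protein passed the test. Ribosome assembly in the nucleolus is driven by Myc and by growth signals. Of 82 ribosome biogenesis genes, 40 were higher and 0 lower (median 0.49). The count was 22 to 25 without 10 mM replicate 3 or vehicle replicate 2 or 3. The Myc gene myca (ENSDARG00000045695) had 10.6, 15.2 and 20.8 CPM at 10 mM, against 2.05, 3.64 and 4.08 CPM in vehicle (log2 2.25, SE 0.30, adjusted p = 0.000286). The rRNA methyltransferase genes ftsj3 (log2 1.32, SE 0.17) and fbl (log2 0.94, SE 0.13) and the nucleolar gene nop58 (log2 0.95, SE 0.14) rose less. Fibrillarin, fbl, had 31.5, 33.5 and 30.0 CPM at 10 mM, against 18.7, 15 and 15.7 CPM in vehicle. Of 76 cytosolic ribosomal protein genes (median -0.13, 3 with a log2 change above 0), 0 passed by edgeR and 0 by DESeq2. An unadjusted p under 0.05 was found in 1 of the 76, against 5044 of all 16766 tested genes. The summed level of this list was 43014 to 50163 CPM at 10 mM and 49232 to 56368 CPM in vehicle. At 1 mM it was 33854, 42335 and 80820 CPM, and these libraries enter the shared estimate of the spread. A fit of only the 6 libraries also called 0 members. Of 75 mitochondrial ribosomal protein genes (median 0.26, 65 with a log2 change above 0), 7 were higher and 0 lower, 9.33%, close to the share of all genes. That count was 2 to 4 without any 10 mM library or vehicle replicate 2 or 3, 16 without 1 mM replicate 3 and 16 in a fit of only the 6 libraries. The mitochondrial ribosomal protein gene mrpl43 had 4.66, 4.50 and 3.57 CPM at 10 mM, against 1.53, 2.03 and 1.97 CPM in vehicle (log2 1.2, SE 0.25, adjusted p = 0.0054).

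Of 50 translation factors, 13 were higher and 2 lower (median 0.12). The initiation factor gene eif4a1a had 89.6, 80.2 and 91.9 CPM at 10 mM, against 17.1, 13.7 and 15.9 CPM in vehicle (log2 2.48, SE 0.27, adjusted p = 7.01e-05). Another translation factor gene, eif4g2a, had 85.3, 76.5 and 85.5 CPM at 10 mM, against 28.4, 23.4 and 17.9 CPM in vehicle (log2 1.83, SE 0.16, adjusted p = 2.04e-05). The elongation factor gene eef1a1a (ENSDARG00000039502) had the smallest p of the lower members, with 8.76, 7.94 and 6.26 CPM at 10 mM, against 29.3, 25 and 32.7 CPM in vehicle (log2 -1.92, SE 0.15, adjusted p = 1.27e-05). Of 47 proteasome subunits, 18 were higher and 0 lower (median 0.44). That count was 9 to 11 without 10 mM replicate 1 or 3 or any vehicle library. The regulatory particle gene psmd11b (ENSDARG00000005134) had 12.5, 11 and 10.5 CPM at 10 mM, against 3.81, 4.11 and 3.78 CPM in vehicle (log2 1.53, SE 0.19, adjusted p = 0.000145). The gene psmc4, an ATPase of the same particle, had 33.0, 33.6 and 27.8 CPM at 10 mM, against 18.3, 17.4 and 18.8 CPM in vehicle (log2 0.79, SE 0.14, adjusted p = 0.0023). Of 55 autophagy and lysosome genes, 5 were higher and 3 lower, near the share of all genes. The number higher was 3 without 10 mM replicate 1, 1 mM replicate 2 or any vehicle library. The tally of lower members was 1 without 10 mM replicate 1 or vehicle replicate 1 or 2, 7 without 1 mM replicate 3, 5 with a filter of 5 CPM in 3 libraries and 9 in a fit of only the 6 libraries. The autophagy kinase genes ulk1a (log2 1.51, SE 0.23) and ULK2 (log2 1.22, SE 0.24) and the lysosomal cholesterol exporter gene npc1 (log2 1.29, SE 0.15) were among the higher ones and the mitophagy receptor gene bnip3 (log2 -0.86, SE 0.13) among the lower.

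Genes of sugar metabolism were called in both directions. Of 58 genes of glycolysis, gluconeogenesis and glycogen, 11 were higher and 8 lower (median -0.07). The count of higher members was 7 without 10 mM replicate 3. Beside pck1, the coactivator gene PPARGC1A (ENSDARG00000067829), which drives gluconeogenic genes in mammals, had 24.7, 16.7 and 23.9 CPM at 10 mM, against 1.78, 2.94 and 1.47 CPM in vehicle (log2 3.40, SE 0.34, adjusted p = 3.71e-05). The last step of glucose release is glucose-6-phosphatase, and genes for it were higher. For g6pc1a.2, chosen after its values were seen, the values were 1534, 1648 and 2316 CPM at 10 mM, against 677, 872 and 918 CPM in vehicle (log2 1.16, SE 0.25, adjusted p = 0.00692). For g6pc1a.1, chosen likewise, they were 265, 217 and 303 CPM at 10 mM, against 163, 168 and 128 CPM in vehicle (log2 0.77, SE 0.18, adjusted p = 0.00924), and g6pc1a.1 missed the threshold without vehicle replicate 3 (adjusted p = 0.0548). The transporter gene slc37a4a, which feeds glucose-6-phosphate to that enzyme, had 204, 221 and 207 CPM at 10 mM, against 118, 124 and 91.2 CPM in vehicle (log2 0.92, SE 0.16, adjusted p = 0.00175). In the opposite direction, beside gck and slc2a5, the phosphofructokinase gene pfklb (ENSDARG00000099755) had 12.4, 18.9 and 15.2 CPM at 10 mM, against 44.7, 39.5 and 34.8 CPM in vehicle (log2 -1.36, SE 0.18, adjusted p = 0.000251). The fructokinase gene khk and the carbohydrate-sensing transcription factor gene mlxipl, both chosen after their values were seen like slc37a4a, were lower as well. For khk the values were 16.9, 20 and 13.6 CPM at 10 mM, against 34.3, 32.2 and 30.6 CPM in vehicle (log2 -0.94, SE 0.17, adjusted p = 0.00179). For mlxipl they were 1.04, 1.51 and 1.14 CPM at 10 mM, against 3.34, 3.54 and 3.56 CPM in vehicle (log2 -1.50, SE 0.30, adjusted p = 0.00383).

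Insulin pathway genes moved both ways. Of 48 genes of insulin, FOXO and mTOR signalling, 11 were higher and 8 lower (median -0.01). Lower members numbered 13 without 1 mM replicate 3 and 14 in a fit of only the 6 libraries. The transcription factor gene foxo1a (ENSDARG00000099555), which insulin holds out of the nucleus, had 254, 189 and 224 CPM at 10 mM, against 57.2, 64.7 and 63.0 CPM in vehicle (log2 1.85, SE 0.14, adjusted p = 1.06e-05). The sestrin genes, whose products restrain mTOR, differed in direction. For sesn1 (ENSDARG00000020693) the values were 43.2, 31.3 and 51.3 CPM at 10 mM, against 115, 113 and 115 CPM in vehicle (log2 -1.45, SE 0.18, adjusted p = 0.00015). For sesn3 they were 10.9, 12.6 and 10.1 CPM at 10 mM, against 28.1, 24.1 and 28.7 CPM in vehicle (log2 -1.27, SE 0.13, adjusted p = 4.87e-05). The gene sesn2, chosen after its values were seen and also an ATF4 target, rose instead (log2 0.97, SE 0.26, adjusted p = 0.0226), but sesn2 missed the threshold without 10 mM replicate 1 or 3 or vehicle replicate 1 or 3 (adjusted p 0.0594 to 0.104). Growth factor genes, chosen after their values were seen, were also lower. The insulin-like growth factor gene igf2a had 87.4, 104 and 106 CPM at 10 mM, against 171, 203 and 235 CPM in vehicle (log2 -1.04, SE 0.14, adjusted p = 0.000359). Its duplicate igf2b had 58.3, 71.4 and 58.2 CPM at 10 mM, against 100, 151 and 185 CPM in vehicle (log2 -1.21, SE 0.19, adjusted p = 0.000865). The circulating carrier gene IGFALS had 213, 214 and 171 CPM at 10 mM, against 394, 372 and 345 CPM in vehicle (log2 -0.89, SE 0.13, adjusted p = 0.000612). The insulin receptor substrate genes, chosen likewise, differed in direction. For IRS1 the values were 5.77, 5.44 and 5.42 CPM at 10 mM, against 10.4, 11.8 and 12.2 CPM in vehicle (log2 -1.05, SE 0.18, adjusted p = 0.00157). For irs2a they were 78.6, 53.1 and 136 CPM at 10 mM, against 33.8, 45.5 and 44.4 CPM in vehicle (log2 1.11, SE 0.29, adjusted p = 0.0173), and irs2a missed the threshold without 10 mM replicate 3 or vehicle replicate 1 or 3 (adjusted p 0.0517 to 0.0829).

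**Figure D4:**
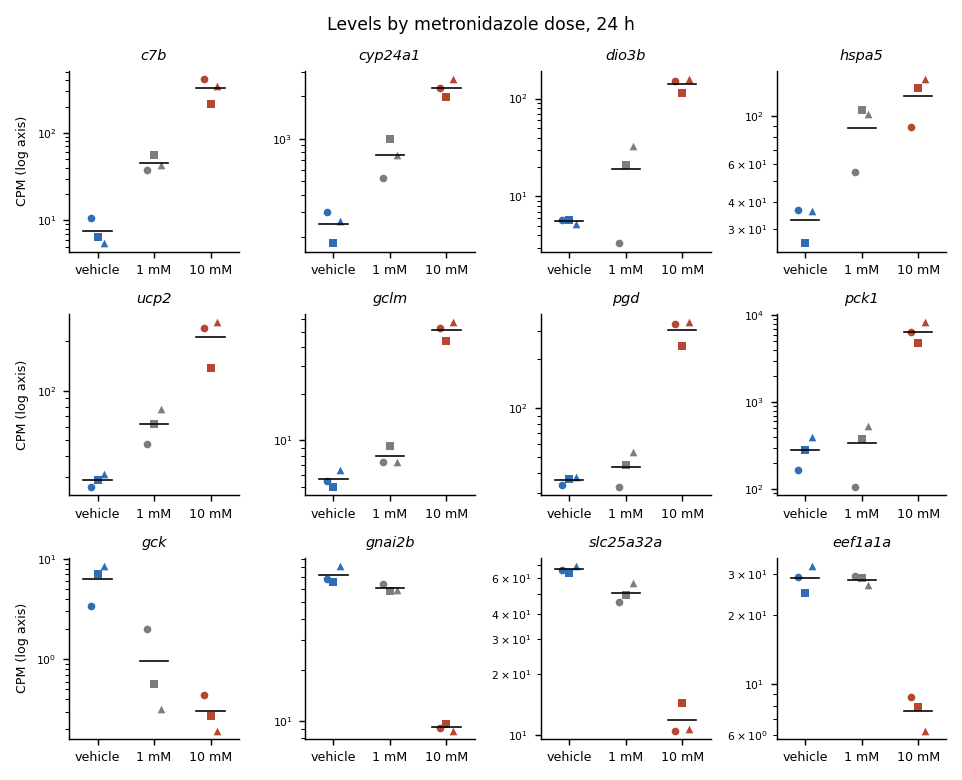
Points give CPM (log axis) in each of 3 libraries of vehicle, 1 mM and 10 mM metronidazole, and black lines the group means. In c7b, cyp24a1 and ucp2 every library at 1 mM lies between those of the other groups. This also holds for gclm and gnai2b, where the libraries at 1 mM lie closer to vehicle. In pgd, pck1 and eef1a1a the libraries at 1 mM lie near those of vehicle, and in gck they lie below vehicle.

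Calls on the lipid synthesis list were mostly upward, while those on the oxidation and ketone list were split evenly. Of 40 fatty acid and triglyceride synthesis genes, 17 were higher and 4 lower (median 0.44). Members called higher came to 11 without 10 mM replicate 3 or vehicle replicate 3. The acyl-CoA synthetase gene acsl4a (ENSDARG00000004078), which activates arachidonate, had 33.7, 20.2 and 38.5 CPM at 10 mM, against 5.67, 3.80 and 3.49 CPM in vehicle (log2 2.83, SE 0.26, adjusted p = 2.36e-05). The lipid droplet gene plin3 had 36.3, 26.4 and 32.6 CPM at 10 mM, against 12.1, 10.7 and 8.39 CPM in vehicle (log2 1.61, SE 0.17, adjusted p = 5.15e-05). The gene fitm2, needed for droplets to form, had 21.5, 16.7 and 19 CPM at 10 mM, against 6.44, 6.89 and 6.47 CPM in vehicle (log2 1.53, SE 0.17, adjusted p = 8.84e-05). The groups did not overlap in these 3 genes, as in nearly all called genes. The fatty acid elongase gene elovl5 had 76.7, 92.7 and 100.4 CPM at 10 mM, against 39.5, 48.0 and 43.0 CPM in vehicle (log2 1.05, SE 0.15, adjusted p = 0.000489). The phosphatidate phosphatase gene lpin1a, chosen after its values were seen, had 599.6, 381 and 695 CPM at 10 mM, against 177, 145 and 142 CPM in vehicle (log2 1.85, SE 0.30, adjusted p = 0.00113). Of 43 genes of fatty acid oxidation and ketones, 5 were higher and 5 lower (11.6% each, against 9.74% and 7.43% of all genes). Higher members numbered 3 without 10 mM replicate 1 or vehicle replicate 2 or 3, 8 without 1 mM replicate 3 and 8 in a fit of only the 6 libraries. The tally of lower members was 2 to 3 without 10 mM replicate 3 or vehicle replicate 1 or 2, 8 without 1 mM replicate 3, 8 with a filter of 5 CPM in 3 libraries and 9 in a fit of only the 6 libraries. The carnitine palmitoyltransferase genes cpt1b (ENSDARG00000058285) and cpt1ab, the gate of mitochondrial oxidation, were among the 5 higher members. None of the 5 lower members is named here, and the median log2 change of the list was 0.00061. For cpt1b the values were 142, 92.9 and 93.2 CPM at 10 mM, against 38.3, 48.7 and 20.3 CPM in vehicle (log2 1.61, SE 0.28, adjusted p = 0.00163). For cpt1ab they were 289.8, 194 and 260.3 CPM at 10 mM, against 129.99, 155 and 133 CPM in vehicle (log2 0.83, SE 0.16, adjusted p = 0.00275). In both the groups did not overlap, again as in nearly all called genes. The mitochondrial uncoupling gene ucp2, chosen after its values were seen, had 240.3, 137 and 261 CPM at 10 mM, against 25.9, 28.4 and 30.9 CPM in vehicle (log2 2.90, SE 0.24, adjusted p = 1.55e-05). The monocarboxylate transporter genes slc16a6b (log2 3.81, SE 0.28), slc16a1b (log2 2.07, SE 0.18) and slc16a4 (log2 2.1, SE 0.18), chosen likewise, were also higher. The duplicate of the first, slc16a6a, is known as a ketone body exporter of the zebrafish liver.

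Of 40 genes of cholesterol synthesis and sensing, 12 were higher and 5 lower (median 0.17). The number lower was 2 to 3 without any 10 mM library or any vehicle library. The gene acat2 (ENSDARG00000007127), which makes acetoacetyl-CoA, had 67.7, 61.0 and 63.1 CPM at 10 mM, against 12.8, 10.3 and 11.05 CPM in vehicle (log2 2.49, SE 0.20, adjusted p = 1.27e-05). The next enzyme of the pathway, hmgcs1, had 21.6, 19.7 and 21.4 CPM at 10 mM, against 6.68, 10.3 and 6.92 CPM in vehicle (log2 1.39, SE 0.17, adjusted p = 0.000136). The brake of sterol sensing insig1 had 107, 93.1 and 202 CPM at 10 mM, against 31.3, 31.0 and 35.2 CPM in vehicle (log2 2.04, SE 0.29, adjusted p = 0.000417). The cholesterol esterification gene soat1 had 71.7, 53.3 and 84.6 CPM at 10 mM, against 22.6, 22.2 and 20.9 CPM in vehicle (log2 1.67, SE 0.18, adjusted p = 7.15e-05). In insig1 10 mM replicate 3 stood above the other treated libraries. Of 29 genes of apolipoproteins and lipoprotein handling, 7 were higher and 1 lower (24.1% and 3.45%, against 9.74% and 7.43% of all genes), the lower one being apobb.2. The gene apoa4a (ENSDARG00000101160) had 15.5, 18.1 and 19.1 CPM at 10 mM, against 2.35, 3.33 and 4.68 CPM in vehicle (log2 2.34, SE 0.24, adjusted p = 4.33e-05). The gene apof had 25.9, 23.4 and 21.9 CPM at 10 mM, against 4.11, 3.28 and 1.02 CPM in vehicle (log2 3.09, SE 0.47, adjusted p = 0.000705). The low-density lipoprotein receptor gene ldlrb had 3.68, 3.50 and 1.75 CPM at 10 mM, against 0.0548, 0.208 and 0.398 CPM in vehicle (log2 3.72, SE 0.62, adjusted p = 0.0012), near the low end of detection in vehicle, and its log2 change was 4.45 without vehicle replicate 3. Its abundant relative ldlra, named after its values were seen, had 194, 193 and 208 CPM at 10 mM, against 165, 192 and 175 CPM in vehicle and did not pass (log2 0.16, SE 0.15, adjusted p = 0.518).

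Bile acid and cytochrome P450 genes fell more often than they rose. Bile acids are made from cholesterol in the liver and sensed by the nuclear receptor FXR, encoded by nr1h4, which induces the repressor gene nr0b2a. Of 26 tested bile acid genes, 2 were higher and 8 lower (median -0.26). The count of lower members was 5 without 10 mM replicate 3 or vehicle replicate 1 or 2. The synthesis gene hsd3b7 (ENSDARG00000036966) had 52.1, 61.3 and 46.6 CPM at 10 mM, against 149, 134 and 151 CPM in vehicle (log2 -1.44, SE 0.13, adjusted p = 2.6e-05). The gene nr1h4 (ENSDARG00000057741) had 27.7, 29.9 and 26.2 CPM at 10 mM, against 44.1, 42.6 and 50.7 CPM in vehicle (log2 -0.71, SE 0.12, adjusted p = 0.00118). Its target nr0b2a had 0.765, 1.08 and 1.43 CPM at 10 mM, against 3.40, 4.21 and 2.84 CPM in vehicle (log2 -1.69, SE 0.27, adjusted p = 0.000864). The groups did not overlap in any of these genes, as in nearly all called genes. The rate-limiting enzyme gene cyp7a1, chosen after its values were seen, had 439.7, 532 and 477 CPM at 10 mM, against 593, 641 and 820.4 CPM in vehicle (log2 -0.50, SE 0.16, adjusted p = 0.0485), but cyp7a1 missed the threshold without any 10 mM library, 1 mM replicate 2 or any vehicle library (adjusted p 0.0535 to 0.222). The higher members were the exporter gene abcc2 (ENSDARG00000014031), with 1849, 1702 and 1919.8 CPM at 10 mM, against 949, 983 and 940.1 CPM in vehicle (log2 0.93, SE 0.13, adjusted p = 0.000429), and the uptake transporter gene slco2b1 (log2 0.89, SE 0.13).

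Of 62 phase I genes, 6 were higher and 17 lower (median -0.21), many of the lower ones in the cyp2 family, whose near-identical members can share reads. Members called lower came to 11 without 10 mM replicate 3. The number higher was 2 without 10 mM replicate 1 or 2 or any vehicle library, 11 without 1 mM replicate 3, 10 by the DESeq2 test and 12 in a fit of only the 6 libraries. Beside cyp2ad2 and XDH, cyp2aa1 (ENSDARG00000099003) had 20.6, 24.3 and 25.8 CPM at 10 mM, against 62.7, 65 and 56.1 CPM in vehicle (log2 -1.38, SE 0.13, adjusted p = 3.32e-05). The P450 reductase gene porb (ENSDARG00000059035), which passes electrons to these enzymes, had the opposite change, with 944, 853 and 922 CPM at 10 mM, against 433, 460.2 and 386 CPM in vehicle (log2 1.09, SE 0.13, adjusted p = 0.000159). The ADP-ribosyltransferase gene tiparp, a target of the aryl hydrocarbon receptor, had 22.1, 17.0 and 25.6 CPM at 10 mM, against 7.07, 7.75 and 6.62 CPM in vehicle (log2 1.59, SE 0.16, adjusted p = 4.83e-05). The most used reporters of that receptor and of the pregnane X receptor, cyp1a and cyp3a65, named after their values were seen, did not pass. For cyp1a the values were 422, 534 and 459 CPM at 10 mM, against 620.4, 656 and 564 CPM in vehicle (log2 -0.38, SE 0.14, adjusted p = 0.0833), and cyp1a passed by the DESeq2 test (adjusted p = 0.0379) and without 1 mM replicate 3 (adjusted p = 0.0404). For cyp3a65 they were 1225, 1359.9 and 1295 CPM at 10 mM, against 1192, 1322 and 1256 CPM in vehicle (log2 0.04, SE 0.13, adjusted p = 0.871).

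Of 65 phase II conjugation and export genes, 18 were higher and 5 lower (median 0.13). Lower members numbered 8 without 1 mM replicate 3, 8 by the DESeq2 test, 8 with a filter of 5 CPM in 3 libraries and 10 in a fit of only the 6 libraries. The ugt and sult families hold near-identical genes, so their values are uncertain where reads are shared. The glucuronosyltransferase genes ugt2b5 (ENSDARG00000116986) and ugt5a1 were higher. For ugt2b5 the values were 49.1, 46.3 and 50.8 CPM at 10 mM, against 18.8, 18.8 and 21.3 CPM in vehicle (log2 1.31, SE 0.12, adjusted p = 2.09e-05). For ugt5a1 they were 15.5, 9.91 and 15.1 CPM at 10 mM, against 3.56, 3.54 and 2.32 CPM in vehicle (log2 2.11, SE 0.22, adjusted p = 5.64e-05). The sulfotransferase genes sult3st2 and sult3st3 rose likewise. For sult3st2 the values were 26.7, 22.6 and 29.7 CPM at 10 mM, against 8.90, 8.25 and 8.27 CPM in vehicle (log2 1.64, SE 0.16, adjusted p = 3.7e-05). For sult3st3 they were 20.6, 13.8 and 23.4 CPM at 10 mM, against 5.12, 3.33 and 3.51 CPM in vehicle (log2 2.27, SE 0.24, adjusted p = 6.6e-05). The groups did not overlap in any of these conjugation genes, as in 2866 of all 2878 called genes. The efflux transporter gene abcg2b, chosen after its values were seen, was lower, with 0.444, 0.485 and 0.389 CPM at 10 mM, against 1.70, 2.19 and 2.86 CPM in vehicle (log2 -2.34, SE 0.34, adjusted p = 0.000484).

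Many immediate early genes rose, with a wide spread between the treated libraries. These genes are transcribed within minutes of a stimulus through MAP kinases, and dusp and spry genes feed back on the kinases. Of 51 tested immediate early and MAPK feedback genes, 27 were higher and 3 lower (median 0.96). Their summed level was 1527, 2105 and 2866 CPM at 10 mM, against 1215 to 1551 CPM in vehicle. By this sum 10 mM replicate 1 lay within the range of vehicle and 10 mM replicate 3 was the highest library. The AP-1 gene fosl1a (ENSDARG00000015355) had 13.3, 14.9 and 32.5 CPM at 10 mM, against 1.67, 1.04 and 1.54 CPM in vehicle (log2 3.83, SE 0.34, adjusted p = 2.09e-05). The gene egr2a (ENSDARG00000044098), an early growth response factor, had 13.2, 29.3 and 35.5 CPM at 10 mM, against 1.70, 1.04 and 1.15 CPM in vehicle (log2 4.32, SE 0.41, adjusted p = 2.83e-05). The gene jun (ENSDARG00000043531) had 38.8, 45.3 and 51.8 CPM at 10 mM, against 16.3, 14.8 and 13.4 CPM in vehicle (log2 1.61, SE 0.16, adjusted p = 4.51e-05). The AP-1 gene fosl2 had 8.0, 7.24 and 11.3 CPM at 10 mM, against 1.94, 1.38 and 1.42 CPM in vehicle (log2 2.48, SE 0.26, adjusted p = 5.64e-05). For jun and fosl2 the treated libraries lay closer together than for fosab, btg2 and egr2a. The genes junbb, egr1 and ier2b and the phosphatase genes dusp1, dusp2 and dusp4, chosen after their values were seen, were higher as well. For junbb the values were 52.3, 105 and 187 CPM at 10 mM, against 12.3, 5.05 and 7.62 CPM in vehicle (log2 3.79, SE 0.61, adjusted p = 0.001). For egr1 they were 72.1, 227 and 385 CPM at 10 mM, against 7.45, 23.2 and 36.4 CPM in vehicle (log2 3.35, SE 0.62, adjusted p = 0.00261), and the log2 change without 10 mM replicate 3 was 2.74. For ier2b they were 1.04, 5.38 and 8.67 CPM at 10 mM, against 0.493, 0.468 and 0.548 CPM in vehicle (log2 3.30, SE 0.68, adjusted p = 0.00498), and 2.66 without that library. In junbb, egr1 and ier2b, 10 mM replicate 1 was the lowest and 10 mM replicate 3 the highest of the treated libraries. For dusp2 the values were 15.5, 53 and 74.5 CPM at 10 mM, against 4.85, 7.36 and 4.83 CPM in vehicle (log2 3.07, SE 0.49, adjusted p = 0.000963). For dusp1 they were 36.6, 79.8 and 107 CPM at 10 mM, against 22, 31.4 and 27.8 CPM in vehicle (log2 1.46, SE 0.30, adjusted p = 0.00461). For dusp4 they were 11.6, 10.5 and 19.7 CPM at 10 mM, against 2.57, 3.04 and 4.31 CPM in vehicle (log2 2.07, SE 0.31, adjusted p = 0.000584). When any single library was left out, 24 to 32 members were higher.

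**Figure D5:**
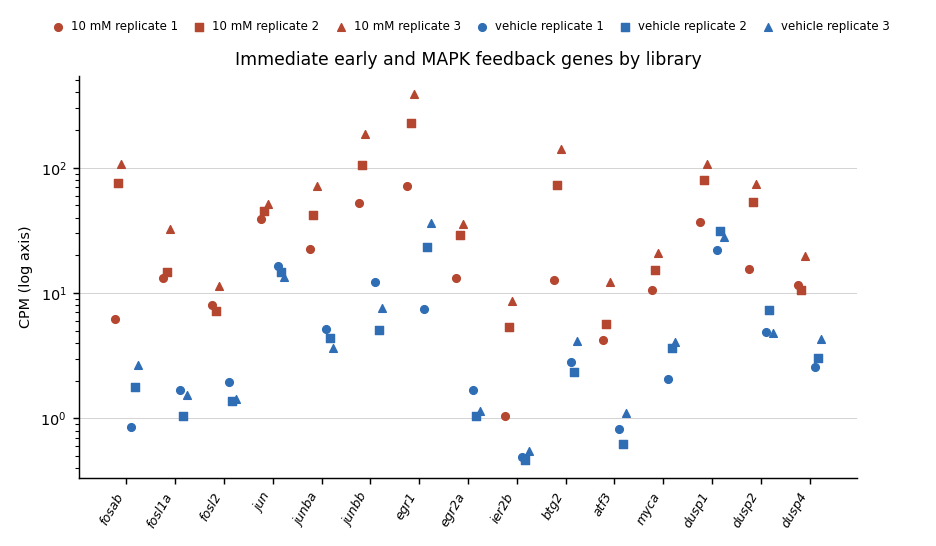
Points give CPM (log axis) in each of 3 libraries at 10 mM (red, left) and 3 of vehicle (blue, right) for 15 immediate early and MAPK feedback genes, the marker shape giving the replicate. In most of them 10 mM replicate 3, the library on lane 8, is the highest and 10 mM replicate 1 the lowest of the treated libraries.

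Single genes of stress, repair and growth arrest were called in both directions. The stress-induced gene tp53inp1 (ENSDARG00000028017) had 189, 129.5 and 219.6 CPM at 10 mM, against 45.2, 49.0 and 55.6 CPM in vehicle (log2 1.85, SE 0.22, adjusted p = 0.000121). The DNA damage recognition gene ddb2 (ENSDARG00000041140) had 10.8, 11.7 and 9.67 CPM at 10 mM, against 22.8, 23.2 and 24.7 CPM in vehicle (log2 -1.14, SE 0.13, adjusted p = 7.32e-05), in the opposite direction. The arrest gene cdkn1a, named after its values were seen, had 6.14, 5.63 and 6.20 CPM at 10 mM, against 3.56, 3.98 and 4.76 CPM in vehicle and did not pass (log2 0.55, SE 0.18, adjusted p = 0.0564), though it did by the DESeq2 test (adjusted p = 0.0453) and without 1 mM replicate 3 (adjusted p = 0.0292). The growth arrest gene gadd45aa, chosen after its values were seen, had 11.7, 8.51 and 19.8 CPM at 10 mM, against 3.29, 2.16 and 1.69 CPM in vehicle (log2 2.48, SE 0.31, adjusted p = 0.000192). Of 31 genes of the BCL2 family and caspases, 6 were higher and 2 lower (19.4% and 6.45%, against 9.74% and 7.43% of all genes). The survival genes mcl1b and bcl2l10 were higher. For mcl1b the values were 72.5, 60.1 and 94.3 CPM at 10 mM, against 30.7, 27.8 and 31.4 CPM in vehicle (log2 1.34, SE 0.26, adjusted p = 0.00326). For bcl2l10 they were 62.0, 55.8 and 63.1 CPM at 10 mM, against 31.8, 32.0 and 29.9 CPM in vehicle (log2 0.95, SE 0.15, adjusted p = 0.000786).

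Of the 44 pathway lists, glucocorticoid receptor targets had the largest share of higher members. Cortisol acts on the liver through this receptor and induces gluconeogenic, anti-inflammatory and feedback genes. Of 33 tested targets, 18 were higher and 4 lower (median 0.91), and single libraries left out moved the first count between 16 and 19. The list holds foxo1a, pck1, tat, ddit4 and both igfbp1 genes, described above, so it is not separate from the fasting genes. The repressor gene ZBTB16 (ENSDARG00000074526) had 71.3, 53.6 and 57.3 CPM at 10 mM, against 18.1, 13.5 and 15.1 CPM in vehicle (log2 1.96, SE 0.16, adjusted p = 1.53e-05). The lipid droplet gene cidec (ENSDARG00000059651) had 50.8, 42.6 and 41.1 CPM at 10 mM, against 10, 11.06 and 8.71 CPM in vehicle (log2 2.17, SE 0.19, adjusted p = 2.09e-05). Among targets chosen after their values were seen, the kinase gene sgk1 had 1064, 1032 and 1588 CPM at 10 mM, against 175, 218 and 332 CPM in vehicle (log2 2.35, SE 0.27, adjusted p = 9.91e-05). The receptor cochaperone gene fkbp5 had 344, 302 and 388 CPM at 10 mM, against 87.7, 52.6 and 60 CPM in vehicle (log2 2.37, SE 0.36, adjusted p = 0.000733). The receptor gene nr3c1 was lower, with 29.3, 34.1 and 31.5 CPM at 10 mM, against 45.5, 51.4 and 52.4 CPM in vehicle (log2 -0.65, SE 0.13, adjusted p = 0.00406).

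Of 43 circadian clock genes, 5 were higher and 10 lower (median -0.18). The repressor genes bhlhe40 (ENSDARG00000004060) and bhlhe41 fell. For bhlhe40 the values were 62.0, 63.5 and 42.9 CPM at 10 mM, against 141, 157 and 133 CPM in vehicle (log2 -1.36, SE 0.18, adjusted p = 0.000303). For bhlhe41 they were 4.05, 3.71 and 3.63 CPM at 10 mM, against 10.9, 12.3 and 11.2 CPM in vehicle (log2 -1.59, SE 0.15, adjusted p = 3.32e-05). The groups did not overlap, as in nearly all called genes. The output factor gene tefa had 48.6, 51.2 and 38.9 CPM at 10 mM, against 93.6, 94.2 and 100.3 CPM in vehicle (log2 -1.05, SE 0.14, adjusted p = 0.000294). The activator gene rorcb had the opposite change, with 17.0, 21.3 and 15.6 CPM at 10 mM, against 5.64, 5.72 and 4.63 CPM in vehicle (log2 1.75, SE 0.16, adjusted p = 2.44e-05). The core genes per2 (30.6, 31.0 and 27.8 CPM at 10 mM, against 23.5, 28.2 and 24 CPM in vehicle) and bmal1a (4.98, 4.90 and 4.58 CPM at 10 mM, against 5.94, 5.10 and 7.05 CPM in vehicle), named after their values were seen, did not pass (adjusted p = 0.276 and 0.245). The sources used here do not give the hour of collection. The count of higher members was 3 without vehicle replicate 1 or 2 and 3 with a filter of 5 CPM in 3 libraries.

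Of 51 hepatocyte transcription factors, 7 were higher and 9 lower (13.7% and 17.6%, against 9.74% and 7.43% of all genes, median -0.12). The number lower was 5 without vehicle replicate 2. The tally of higher members was 11 without 1 mM replicate 3 and 11 in a fit of only the 6 libraries. The gene cebpb (ENSDARG00000042725), an acute stress factor of the liver, had 188, 198 and 256 CPM at 10 mM, against 91.1, 97.3 and 77.2 CPM in vehicle (log2 1.27, SE 0.16, adjusted p = 0.000173). The pioneer factor gene foxa1 had 20.6, 25.5 and 25.6 CPM at 10 mM, against 36.3, 46.8 and 48.4 CPM in vehicle (log2 -0.88, SE 0.15, adjusted p = 0.00128). The gene usf1, which acts on lipogenic genes, had 3.01, 3.07 and 2.21 CPM at 10 mM, against 7.23, 6.27 and 7.39 CPM in vehicle (log2 -1.33, SE 0.19, adjusted p = 0.000481). The master regulator gene hnf4a, named after its values were seen, had 179.6, 165 and 152 CPM at 10 mM, against 173, 153 and 150.4 CPM in vehicle and did not pass (log2 0.06, SE 0.13, adjusted p = 0.812).

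Immune and plasma protein genes were called in both directions. Of 37 complement genes, 2 were higher and 2 lower (median -0.20), 5.41% each and under the shares of all genes. Beside c7b, the membrane attack complex gene c6 (ENSDARG00000057113) had 106, 82.0 and 101 CPM at 10 mM, against 50.1, 44.6 and 42.5 CPM in vehicle (log2 1.08, SE 0.13, adjusted p = 0.000156). The complement regulators vtna (log2 -0.54, SE 0.13) and cfhl2 (log2 -0.59, SE 0.17) were lower, but vtna missed the threshold without 10 mM replicate 3 or vehicle replicate 3 (adjusted p 0.0545 to 0.0584), and cfhl2 missed the threshold without any 10 mM library or any vehicle library (adjusted p 0.0582 to 0.145). The count of lower members was 0 to 1 without any 10 mM library or any vehicle library, 4 without 1 mM replicate 3, 4 with no count filter and 6 in a fit of only the 6 libraries. Of 30 coagulation genes, 5 were higher (16.7%, against 9.74% of all genes) and 0 lower. The von Willebrand factor gene vwf had 8.17, 7.73 and 8.73 CPM at 10 mM, against 1.83, 1.61 and 2.34 CPM in vehicle (log2 2.09, SE 0.25, adjusted p = 0.000134). The factor IX gene f9b had 201, 147 and 183 CPM at 10 mM, against 114, 106 and 105 CPM in vehicle (log2 0.71, SE 0.13, adjusted p = 0.0028). Members called higher came to 3 without 10 mM replicate 1 or vehicle replicate 2, 8 without 1 mM replicate 3 and 8 in a fit of only the 6 libraries. The tally of lower members was 2 to 4 without 1 mM replicate 1 or 3, 3 by the DESeq2 test, 1 with no count filter, 5 with a filter of 5 CPM in 3 libraries and 6 in a fit of only the 6 libraries. Of 47 acute phase and cytokine genes, 5 were higher and 6 lower (10.6% and 12.8%, against 9.74% and 7.43% of all genes). Higher members numbered 2 to 3 without 10 mM replicate 1 or 3 or any vehicle library, 9 with no count filter and 3 with a filter of 5 CPM in 3 libraries. The antimicrobial peptide gene leap2 (ENSDARG00000104654) had 10.1, 13.6 and 6.65 CPM at 10 mM, against 38.4, 41.5 and 48.1 CPM in vehicle (log2 -2.08, SE 0.23, adjusted p = 7.57e-05). The chemokine gene cxcl18b had 4.29, 4.68 and 3.67 CPM at 10 mM, against 9.53, 7.34 and 8.91 CPM in vehicle (log2 -1.03, SE 0.19, adjusted p = 0.00249). The cytokine gene il1b, named after its values were seen, stayed under 1 CPM in every library and did not pass (log2 1.2, SE 0.90, adjusted p = 0.413). Of 43 interferon and antigen presentation genes, 2 were higher and 7 lower (16.3%, median -0.36). The genes irf9 and stat2, parts of the complex that carries the interferon signal to DNA, fell. For irf9 the values were 8.69, 11.4 and 8.67 CPM at 10 mM, against 16.8, 15.6 and 16.7 CPM in vehicle (log2 -0.77, SE 0.14, adjusted p = 0.00222). For stat2 they were 27.6, 30.0 and 30.0 CPM at 10 mM, against 48.1, 43.6 and 41.6 CPM in vehicle (log2 -0.60, SE 0.11, adjusted p = 0.00287). The interferon regulatory factor gene irf7 was higher, with 15.1, 10.5 and 13.8 CPM at 10 mM, against 6.82, 3.82 and 5.48 CPM in vehicle (log2 1.29, SE 0.22, adjusted p = 0.00152). Members called lower came to 4 without vehicle replicate 2 or 3.

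Of 43 iron, heme and ferritin genes, 3 were higher and 1 lower, under the share of all genes. The rate-limiting heme synthesis gene alas1 (ENSDARG00000021059) had 672, 542 and 688 CPM at 10 mM, against 221, 223 and 206 CPM in vehicle (log2 1.55, SE 0.16, adjusted p = 4.89e-05). The transferrin receptor gene tfr1b had 1114, 1209 and 1369.6 CPM at 10 mM, against 378, 452 and 454 CPM in vehicle (log2 1.52, SE 0.22, adjusted p = 0.00042). The gene ncoa4, which delivers ferritin for breakdown, had 121, 74.6 and 110.2 CPM at 10 mM, against 31.4, 36.1 and 30.1 CPM in vehicle (log2 1.65, SE 0.17, adjusted p = 4.83e-05). The groups did not overlap in any of these, as in nearly all called genes. The number higher was 5 without 1 mM replicate 3 and 6 in a fit of only the 6 libraries. Of 24 metallothionein and metal transporter genes, 3 were higher and 2 lower (12.5% and 8.33%, against 9.74% and 7.43% of all genes). The count of higher members was 5 to 7 without 1 mM replicate 1 or 3 and 6 in a fit of only the 6 libraries. The zinc exporter gene slc30a1a, a higher one, had 26.9, 27.8 and 32.5 CPM at 10 mM, against 14.8, 15.3 and 14.7 CPM in vehicle (log2 0.96, SE 0.13, adjusted p = 0.000289). The metallothionein gene mt2, named after its values were seen, had 141, 106 and 129 CPM at 10 mM, against 109.7, 109.7 and 128 CPM in vehicle and did not pass (log2 0.12, SE 0.16, adjusted p = 0.695). Of 34 hypoxia genes, 7 were higher and 2 lower (20.6% and 5.88%, against 9.74% and 7.43% of all genes). The gene hif1al (ENSDARG00000100826) had 367, 290.1 and 380.4 CPM at 10 mM, against 48.9, 39.8 and 35.8 CPM in vehicle (log2 3.06, SE 0.29, adjusted p = 2.6e-05). In the opposite direction, ndrg1a had 45.3, 58.1 and 30.4 CPM at 10 mM, against 137, 139 and 142 CPM in vehicle (log2 -1.64, SE 0.19, adjusted p = 0.000107).

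Of 44 purine and pyrimidine genes, 10 were higher and 4 lower (median -0.08). Beside pnp5a and XDH, the CTP synthase gene ctps1a had 27.3, 27.7 and 27.9 CPM at 10 mM, against 12.7, 12.1 and 10.4 CPM in vehicle (log2 1.24, SE 0.17, adjusted p = 0.000292). The adenylosuccinate synthase gene adss2 had 2.81, 3.10 and 2.86 CPM at 10 mM, against 7.23, 7.55 and 8.91 CPM in vehicle (log2 -1.43, SE 0.19, adjusted p = 0.000259). Of 45 genes of the urea cycle and amino acid catabolism, 6 were higher and 6 lower (13.3% each, against 9.74% and 7.43% of all genes). The urea cycle genes cps1, otc, arg1 and nags were at 0 in all 6 libraries, so these genes could not be compared. Members called higher came to 11 without 1 mM replicate 3 and 11 in a fit of only the 6 libraries. The tally of lower members was 1 to 2 without 10 mM replicate 1 or 3 or any vehicle library. Genes of branched-chain amino acid use differed in direction. The kinase gene bckdk, which switches off the branched-chain dehydrogenase, had 19.7, 29.0 and 21.9 CPM at 10 mM, against 61.6, 62.5 and 52.8 CPM in vehicle (log2 -1.32, SE 0.15, adjusted p = 0.000109). The dehydrogenase subunit gene dbt had 40.4, 39.8 and 33.5 CPM at 10 mM, against 24.1, 24.7 and 23.1 CPM in vehicle (log2 0.66, SE 0.13, adjusted p = 0.00297). The aminotransferase gene bcat1 had 69.4, 42.9 and 76.2 CPM at 10 mM, against 15.6, 17.6 and 23.7 CPM in vehicle (log2 1.73, SE 0.23, adjusted p = 0.000251).

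Few cell cycle genes were called at 10 mM. Of 56 DNA replication genes 0 passed by edgeR (median -0.23). Of the 56, 12 had an unadjusted p under 0.05, against 5044 of all 16766 tested genes. By DESeq2, 1 of the 56 was higher and 2 were lower. By edgeR 4 were lower without 1 mM replicate 3 and in a fit of only the 6 libraries, 3 were lower with no count filter or a filter of 5 CPM in 3 libraries, and 2 were higher without 10 mM replicate 2. Every other such fit called 0 to 2 in a direction. Of 60 mitosis genes (median 0.41, 48 with a log2 change above 0), 4 were higher and 0 lower, 6.67%, under the share of all genes. That count was 1 to 2 without 10 mM replicate 3 or vehicle replicate 1 and 0 with a filter of 5 CPM in 3 libraries. They were nek2, cdk1 (0.888, 1.24 and 2.30 CPM at 10 mM, against 0.602, 0.468 and 0.548 CPM in vehicle), kifc1 (log2 1.23, SE 0.32) and cenpe (log2 1.16, SE 0.34), all at 5 CPM or less at 10 mM. The last 3 were not stable, since cdk1 missed the threshold without 10 mM replicate 3 or vehicle replicate 2 or 3 (adjusted p 0.0556 to 0.0746), kifc1 missed the threshold without 10 mM replicate 1 or 3 or vehicle replicate 1 (adjusted p 0.0596 to 0.0752) and cenpe missed the threshold without 10 mM replicate 2 or 3 or vehicle replicate 1 or 2 (adjusted p 0.0678 to 0.124). At 1 mM the same comparison with vehicle called 25 DNA replication genes and 17 mitosis genes higher, and cdk1 had 3.94, 3.45 and 4.82 CPM there. Of 38 extracellular matrix genes 2 were higher and 1 lower, and of 49 actin and cytoskeleton genes 5 were higher and 1 lower. The count of higher actin and cytoskeleton genes was 3 without 10 mM replicate 1 or vehicle replicate 3, 9 without 1 mM replicate 3 and 9 in a fit of only the 6 libraries. The collagen gene col1a1b had 26.2, 22.8 and 24.2 CPM at 10 mM, against 33.8, 36.7 and 40.6 CPM in vehicle (log2 -0.60, SE 0.13, adjusted p = 0.00573). The tropomyosin gene tpm3 had 37.0, 37.8 and 35.2 CPM at 10 mM, against 18.2, 19.6 and 20.4 CPM in vehicle (log2 0.92, SE 0.11, adjusted p = 0.000144).

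Markers of cell types gave few calls. Of 19 hepatocyte markers, 0 were higher and 1, gc, was lower. Of 15 biliary markers 0 passed by edgeR and 0 by DESeq2. An unadjusted p under 0.05 was found in 3 of the 15, against 5044 of all 16766 tested genes. The summed level of the biliary markers was 3985 to 4028 CPM at 10 mM and 3442 to 3793 CPM in vehicle. Of 16 endothelial markers 2 were lower, cldn5b (log2 -0.72, SE 0.18) and erg (log2 -0.77, SE 0.21), and their summed level was 302 to 318 CPM at 10 mM and 306 to 324 CPM in vehicle. Both calls were unstable, as cldn5b missed the threshold without 10 mM replicate 1 or 2 or vehicle replicate 2 or 3 (adjusted p 0.054 to 0.0761) and erg missed the threshold without 10 mM replicate 1 or 3 or vehicle replicate 1 or 3 (adjusted p 0.077 to 0.0959). Of 13 macrophage markers 1 was higher, the scavenger receptor gene marco with 22.5, 23.0 and 23.9 CPM at 10 mM, against 12.2, 13.7 and 15.6 CPM in vehicle (log2 0.74, SE 0.13, adjusted p = 0.00169), and the summed level was 86.0 to 98.5 CPM at 10 mM and 68.6 to 84.2 CPM in vehicle. Of neutrophil, lymphocyte, erythrocyte, thrombocyte, exocrine pancreas and enterocyte markers 0 passed by edgeR. At an unadjusted p under 0.05 there were 0 of 10 neutrophil, 3 of 8 lymphocyte, 1 of 18 erythrocyte, 0 of 8 thrombocyte, 0 of 30 exocrine pancreas and 1 of 10 enterocyte markers, and DESeq2 called 1 of them, an erythrocyte gene, higher. These counts stand beside the 5044 of all 16766 tested genes given above. The B cell gene pax5 and the enterocyte gene fabp6 were at 0 in all 6 libraries. Of 14 markers of stellate cells and fibroblasts, sparc (log2 0.47, SE 0.14) and pdgfrb (log2 0.70, SE 0.22) were higher and col1a1b lower. The higher ones were not stable, as sparc missed the threshold without 10 mM replicate 1 or 3 or any vehicle library (adjusted p 0.0663 to 0.113) and pdgfrb missed the threshold without any 10 mM library, 1 mM replicate 2 or any vehicle library (adjusted p 0.0517 to 0.166). Calls were also made among markers of endocrine pancreas, muscle, nerve and skin. The endocrine gene arxa had 0.666, 0.834 and 0.130 CPM at 10 mM, against 0.110, 0 and 0.0498 CPM in vehicle, and arxa missed the threshold without 10 mM replicate 1 or 2, 1 mM replicate 2 or vehicle replicate 2 or 3 (adjusted p 0.0529 to 0.117). The muscle actin gene acta1a had 3.21, 1.99 and 2.73 CPM at 10 mM, against 0.383, 0.416 and 0.797 CPM in vehicle (log2 2.30, SE 0.42, adjusted p = 0.00231). The nerve terminal gene snap25b (log2 1.56, SE 0.39) was higher, but snap25b missed the threshold without 10 mM replicate 1 or vehicle replicate 2 or 3 (adjusted p 0.0655 to 0.069). The skin keratin gene krt5 overlapped between the groups, with 1.78, 0.135 and 0 CPM at 10 mM, against 0.164, 13.1 and 41.4 CPM in vehicle, and krt5 missed the threshold without 10 mM replicate 2 or 3 or vehicle replicate 3 (adjusted p 0.0774 to 0.136). In bulk tissue, fewer cells of a type and less RNA per cell cannot be told apart, and the part of cell composition in the results above was not tested beyond these marker levels.

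Values at 1 mM are set beside those at 10 mM for a few of the genes named above, and both comparisons use the same vehicle libraries. Of the 12 genes with the largest rises at 10 mM, only c7b was past the threshold at 1 mM. Of the 12 with the largest falls, only gck was. The share of all genes that lay apart from vehicle at 1 mM was not determined, so nothing is read from such a separation. At 1 mM, 165 genes were called against vehicle, 149 higher and 16 lower. The gene c7b had 37.5, 55.7 and 43.2 CPM at 1 mM, a log2 change of 2.60 (SE 0.28, adjusted p = 0.0019) against 5.44 at 10 mM. The gene cyp24a1 had 520.4, 991 and 767 CPM at 1 mM (log2 1.63, SE 0.24, adjusted p = 0.0116). For hspa5 the values at 1 mM were 55.4, 107 and 103 CPM (log2 1.43, SE 0.25, adjusted p = 0.0226). These genes lay above vehicle in every library at 1 mM. For gck they were 2.01, 0.566 and 0.317 CPM (log2 -2.69, SE 0.54, adjusted p = 0.0392), below vehicle in every library. The genes gclm and pck1 were not past the threshold at 1 mM. For gclm the values were 7.22, 9.25 and 7.30 CPM (log2 0.49, SE 0.16, adjusted p = 0.206), above vehicle in every library. The gene pck1 had 105, 379 and 538 CPM (log2 0.28, SE 0.45, adjusted p = 0.876), overlapping vehicle. For gnai2b the values were 64.0, 57.7 and 58.5 CPM (log2 -0.26, SE 0.12, adjusted p = 0.432), below vehicle in every library but not past the threshold.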

How the data were processed

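RNA-seq of larval livers was measured in 9 libraries, of which the 3 at 10 mM metronidazole and the 3 of vehicle were compared. Reads were aligned with HISAT2 to GRCz11 and counted per gene with featureCounts, per the submitters' processing notes, and the authors deposited raw counts, not normalized. Versions, strand setting and annotation were not stated, so reads of antisense, overlapping or near-identical genes cannot be told apart. All columns were used (0 left out). Of counts from 1 to 20, 75.2% to 82.9% were even numbers, so an alternative used halved counts.

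The counts were fitted with edgeR 4.0.16 in R 4.3.3 by its quasi-likelihood test, with TMM factors, filterByExpr (minimum count 10, minimum total 15), 1 fit over 9 libraries and Benjamini-Hochberg adjustment over all tested genes, with a threshold of 0.05. SE is the size of the log2 change over the root of F. CPM values use TMM-scaled library sizes, and every p in the text is two-sided. The script was tested on simulated data. Alternatives were DESeq2 1.42.0, its size factors, no count filter, a filter of 5 CPM in 3 libraries, a fit of only the 6 libraries, a replicate block, leaving out mitochondrial and the 20 most abundant genes, halved counts, and each of 9 libraries left out. Total counts were 29993109 to 41300673 per library, and the median SE was 0.25 on the log2 scale.

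The comparison, its members and the gene lists were chosen with earlier results of these data known. Genes to name were called genes that had a symbol, averaged 1 CPM or more and did not overlap between groups. Of these the text takes the 12 with the largest log2 change and the 8 with the largest CPM difference in each direction and, whatever their level, the 4 called members with the smallest p in each list. Genes outside this rule are marked in the text as chosen with their values in view. In the lists, 2324 of 2508 members matched 1 gene. Promoter motifs were not analysed here. Some genes and 1 of the lists are not reported here.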

Additional observations from a re-analysis of the deposited data

How the results depend on the processing

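Under the 8 alternatives that keep all 3 libraries of each group, the genes called higher at 10 mM numbered 1362 to 2267 and those called lower 1038 to 1835, each within 1.5 times the reported 1633 and 1245. With 1 library left out, 1084 to 2282 genes were higher and 770 to 1784 lower. The lowest of both came without vehicle replicate 3 and the highest without 1 mM replicate 3. The cause was not tested. Same-numbered libraries of 10 mM and vehicle had correlations of deviations of 0.056, 0.040 and 0.044, under 0.1, so the numbers were not taken to pair them, although each of these libraries correlated best with its own number. With the replicate block, 1417 genes were higher and 1038 lower. Of the named genes gc, ftcd, cfhl2, pdgfrb, erg, arxa, krt5, atf4a and cyp7a1 missed the threshold in it. Members called with the block numbered 3 higher for phase I, 3 higher for autophagy and lysosome, 1 lower for complement and 3 lower for urea cycle and amino acid catabolism. Of 230 called genes with values under the alternatives, 202 kept the call in every one that gave a value, and 28 lost it in at least 1. With all libraries kept and no block, gc and ftcd missed the threshold with no count filter, ftcd and cyp7a1 with DESeq2 size factors and without the most abundant genes, and pdgfrb with the filter of 5 CPM. The gene arxa was not tested with that filter, in the fit of only the 6 libraries or with halved counts. The log2 change of hnf4a, which was not called, turned to -0.0058 without 10 mM replicate 1 and reached 0.123 without vehicle replicate 1. Of 2006 list counts recomputed, 280 moved by over 1.5 times, mostly in counts of few members. Genes under 1 CPM were called least often (3.46%), and the part of depth in this was not tested.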
